A study of Mus musculus with 2 samples.

Results

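The genes described here handle cellular iron, and they make up 10 of the 54680 loci measured in CT26 cells after knockdown of Setdb1. They were chosen by gene name: Tfrc, Steap3 and Slc11a2 for uptake, Fth1, Ftl1 and Ncoa4 for storage, Slc40a1 for export, and Aco1, Ireb2 and Fbxl5 for iron sensing. CT26 is a mouse colon cancer cell line, and RNA sequencing of total RNA was used to measure its transcripts. One culture received a lentiviral short hairpin RNA against Setdb1, a histone H3 lysine methyltransferase gene, and is called shSetdb1. The other, shCtrl, received lentivirus with the empty knockdown vector and is labelled wild type. Both were grown for 6 days in medium with serum, until the knockdown cells had changed in phenotype. Each of the 2 groups had 1 library, so every difference below compares those libraries, without a replicate check and without a test between conditions.

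Iron enters most cells bound to transferrin. The receptor carries it into endosomes, a reductase converts it to the ferrous form, and a transporter moves it into the cytosol, where ferritin shells of heavy and light chains store what is not used. Iron regulatory proteins adjust this traffic by binding short hairpins in mRNAs, the iron-responsive elements. In iron-poor cells a bound element before the coding sequence blocks translation, as in ferritin mRNA, whereas bound elements after the coding sequence protect Tfrc mRNA from decay. RNA sequencing counts mRNA and not protein, so the control of ferritin translation lies outside these data.

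The elements are shown here because they are the sites through which the regulatory proteins act on these mRNAs. Transcripts of all 10 genes were searched, on the transcript strand, for the letters CNNNNNCAGTGN (last base not G), with 5 of 5 bases paired on both sides of the loop and at least 3 of 5 below the bulged C. G-T pairs were allowed. Of the 10 genes, 4 held a match, 7 elements in all, against 68 of 21901 protein-coding genes in GENCODE M21 (0.31%), whose transcripts differ in length. The elements of ferritin and Tfrc mRNAs were known before the search, so these shares are no test of enrichment. Each element below is 27 bases, 5′ to 3′, in DNA letters from the GENCODE M21 transcripts on GRCm38, with the bulged C and the loop of 6 bases in capitals.
Fth1, before the coding sequence, chr19:9982733-9982759, plus strand: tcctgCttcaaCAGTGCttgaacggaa
Ftl1, before the coding sequence, chr7:45459780-45459806, minus strand: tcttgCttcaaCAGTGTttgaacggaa
Slc40a1, before the coding sequence, chr1:45925466-45925492, minus strand: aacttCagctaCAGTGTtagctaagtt
Tfrc, after the coding sequence, chr16:32631220-32631246, plus strand: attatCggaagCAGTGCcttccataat
Tfrc, after the coding sequence, chr16:32631599-32631625, plus strand: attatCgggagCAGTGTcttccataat
Tfrc, after the coding sequence, chr16:32631664-32631690, plus strand: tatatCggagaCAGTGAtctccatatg
Tfrc, after the coding sequence, chr16:32631711-32631737, plus strand: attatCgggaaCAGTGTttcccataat
Between the ferritin elements 2 bases differ, C3T and C17T, counted from the 5′ end of the element with the Fth1 base first. The 4 Tfrc elements lie in exon 19, the last, within 518 bases. Slc11a2 has transcripts known to carry such an element with an irregular stem, which this pattern did not match, and no match says only that no stretch of the searched transcripts met both the letters and the stem pairing required.

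Levels spanned a wide range. FPKM, the fragment count scaled by gene model length and by depth, could be turned back into whole reads for 100% of the values above 0, so each level is given with its reads. Genes entered the counts when they reached 1 FPKM in at least 1 library, which 10671 loci and 9 of the 10 iron genes did. Fth1 and Ftl1 were among the highest loci of the whole table, and the other 7 genes with reads lay at 22.6 FPKM or lower in both libraries. In the shCtrl library the order was Fth1, Ftl1, Aco1, Slc11a2, Ncoa4, Fbxl5, Tfrc, Ireb2 and Steap3. Ncoa4 and Fbxl5, and likewise Tfrc and Ireb2, had overlapping counting intervals there. In the shSetdb1 library Fbxl5 came before Tfrc, Ncoa4, Steap3 and Ireb2, and the intervals of Tfrc, Ncoa4 and Steap3 overlapped from one neighbour to the next.

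**Figure D1:**
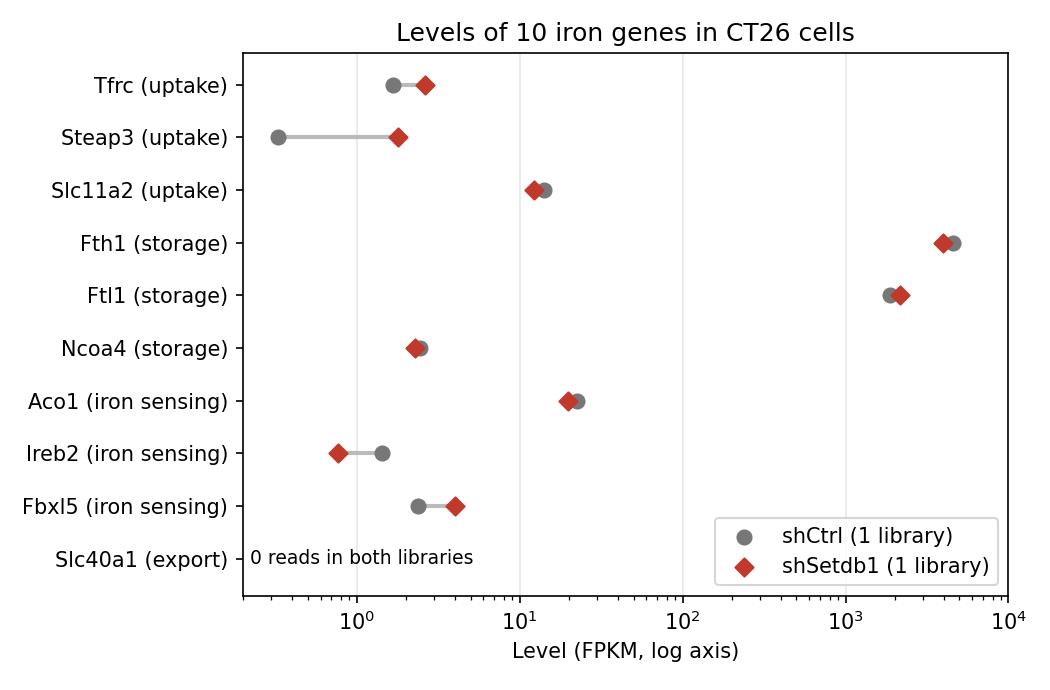
Level of each of the 10 iron genes in FPKM (log axis) in the shCtrl library (grey circles) and the shSetdb1 library (red diamonds), with the role in brackets. Ferritin genes sit at 1886 FPKM or more in both libraries, Steap3 shows the widest gap, from 0.327 to 1.79 FPKM, and Slc40a1 had 0 reads.

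Among the genes of uptake, Steap3 differed most. It encodes the endosomal ferrireductase of transferrin-bound iron (ENSMUSG00000026389, chromosome 1, 120190757 to 120272705, minus strand). The control library had 35 reads (0.327 FPKM) and the shSetdb1 library 192 reads (1.79 FPKM). The knockdown library was thus clearly the higher one, at a low level in both. The read ratio, relative to each library's own total, was 5.31 with a 95% exact (Clopper-Pearson) counting interval of 3.69 to 7.84. Such intervals cover counting error only, and not the spread between cultures, because each group had 1 library. PCR copies without molecular identifiers are not independent molecules, so the intervals can be too narrow even for counting error. On the log2 ratio of (FPKM + 1), which understates the change of low genes, Steap3 was at 1.07. It was the only one of the 9 genes at 1 FPKM to differ at least 2-fold on that scale, where 11.7% of the 10671 loci did, 6.81% higher and 4.85% lower. Steap3 reached 1 FPKM in the shSetdb1 library alone, so it entered this count through the library where it is higher. With a pseudocount of 0.1 in place of 1 the log2 ratio was 2.15.

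Tfrc, the transferrin receptor that brings iron-loaded transferrin into the cell (ENSMUSG00000022797, chromosome 16, 32608920 to 32632794, plus strand), was low in both libraries. It had 194 reads (1.67 FPKM) in the shCtrl library and 306 reads (2.64 FPKM) in the shSetdb1 library. Only 15.6% of the 10671 loci were lower than Tfrc in the shCtrl library, and 26.4% in the shSetdb1 library. Its read ratio was 1.53 (1.27 to 1.84) and its log2 ratio 0.45. Slc11a2, the divalent metal transporter that moves ferrous iron out of the endosome (ENSMUSG00000023030, chromosome 15, 100387898 to 100425072, minus strand), went the other way. Its levels were 14.1 FPKM (1678 reads) and 12.3 FPKM (1460 reads), control first, with a read ratio of 0.842 (0.784 to 0.903). In both libraries the transporter was therefore higher per length than the receptor and the reductase, and the gap was narrower after knockdown.

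The storage genes carried most of the reads. Fth1, the heavy chain with the ferroxidase centre (ENSMUSG00000024661, chromosome 19, 9982703 to 9985092, plus strand), had 73744 reads (4546 FPKM) in the shCtrl library and 64129 reads (3953 FPKM) in the shSetdb1 library. It ranked 5 among all loci by FPKM in the shCtrl library and 4 in the shSetdb1 library. Ftl1, the light chain that promotes deposition of the iron core (ENSMUSG00000050708, chromosome 7, 45457944 to 45459884, minus strand), had 47349 reads (1886 FPKM) and 54373 reads (2166 FPKM), control first. The chains differed in opposite directions, heavy lower and light higher in the shSetdb1 library. Their read ratios were 0.841 (0.832 to 0.850) and 1.11 (1.10 to 1.12), and their log2 ratios -0.20 and 0.20. These differences are small, and the narrow intervals reflect the depth and not agreement between cultures. Both directions held under the 7 alternatives run, with log2 ratios from -0.29 to -0.20 for Fth1 and from 0.11 (upper-quartile scaling) to 0.20 for Ftl1. At these high levels a change of pseudocount hardly alters the values, and summing loci could not alter Fth1, so those settings are no check here.

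Heavy chain exceeded light chain per length in both libraries, by 2.41 times (2.38 to 2.44) in the shCtrl library and 1.82 times (1.80 to 1.85) in the shSetdb1 library. Taken as one, the 2 genes held 121093 reads in the shCtrl library, 0.657% of its total. In the shSetdb1 library they held 118502 reads, or 0.622%.

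Ferritin has many pseudogenes, so the other loci were examined. Fth1 was the only locus whose Swiss-Prot match in the authors' table is mouse ferritin heavy chain. A further 6 loci match a heavy chain of another species, and none of them had a read. In Fth1, 4.01% of the 50-base stretches of its longest transcript occur in a transcript of another gene. For Ftl1 that share was 90.6%, spread over 17 other genes, and Ftl1-ps1 shared most. The table holds 28 loci with the mouse light chain match, 9 of them with reads. They include pseudogenes and also microRNA genes, such as Gm22133 within Ftl1, so they are not 28 separate copies. The 27 loci besides Ftl1 held 1006 reads in the shCtrl library and 1213 in the shSetdb1 library, 2.08% and 2.18% of the light chain total. Nearly all of these reads belonged to Ftl1-ps1, annotated as protein-coding, with 920 and 1080 reads. Its transcript carries the same 27-base element as Ftl1. Summed over the 28 loci, the light chain read ratio was 1.11 (1.10 to 1.13) and the log2 ratio 0.20, as for Ftl1 alone. How reads that fit several loci were assigned is not given in the sources used here, so the division between Ftl1 and its copies is uncertain and their sum less so. The Ftl1 model also overlaps Gm10252 on the opposite strand, which had 111 and 16 reads.

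Ncoa4, the receptor that delivers ferritin to autophagy to release its iron (ENSMUSG00000056234, chromosome 14, 32159865 to 32179855, plus strand), had 432 reads (2.46 FPKM) in the shCtrl library and 400 reads (2.28 FPKM) in the shSetdb1 library. Its read ratio of 0.896 had a counting interval of 0.780 to 1.03. It was the 1 member with reads whose interval included 1, so a difference between the libraries was not detectable at this depth. A processed pseudogene, Gm6768, carries the Swiss-Prot match to this protein and shares 43.1% of the 50-base stretches of Ncoa4, with 105 and 104 reads of its own. Both loci added up gave 537 and 504 reads and a ratio of 0.908 (0.802 to 1.03).

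Slc40a1 encodes ferroportin, the iron exporter of mammalian cells (ENSMUSG00000025993, chromosome 1, 45908068 to 45926523, minus strand). It had 0 reads in both libraries. A count of 0 allows up to 3 reads, which is 0.0178 FPKM for this gene model, so no fold is given.

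The sensors of iron differed from one another. Aco1 encodes cytosolic aconitase, which becomes iron regulatory protein 1 when it loses its iron-sulfur cluster (ENSMUSG00000028405, chromosome 4, 40143081 to 40198338, plus strand). Its levels were 22.6 FPKM (1901 reads) in the shCtrl library and 19.9 FPKM (1678 reads) in the shSetdb1 library, a read ratio of 0.854 (0.799 to 0.912). Ireb2, iron regulatory protein 2, which lacks the cluster and is controlled by degradation (ENSMUSG00000032293, chromosome 9, 54863789 to 54912530, plus strand), had 255 reads (1.44 FPKM) against 137 reads (0.772 FPKM). The knockdown library was the lower one, with a read ratio of 0.520 (0.419 to 0.642), the lowest of the 9 genes with reads. The log2 ratio was -0.46, or -0.82 with the pseudocount of 0.1. Aco1 exceeded Ireb2 per length by 15.7 times (13.8 to 18.0) in the shCtrl library and 25.8 times (21.7 to 31.0) in the shSetdb1 library.

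Fbxl5 encodes the iron-binding subunit of the ubiquitin ligase that marks Ireb2 for degradation when iron is sufficient (ENSMUSG00000039753, chromosome 5, 43744615 to 43821638, minus strand). It went in the direction opposite to Ireb2, from 434 reads (2.38 FPKM) in the shCtrl library to 735 reads (4.03 FPKM) in the shSetdb1 library. The read ratio was 1.64 (1.45 to 1.85) and the log2 ratio 0.57. Its model overlaps 3 loci with reads, of which Bst1 on the opposite strand had 0 reads in the shCtrl library and 41 in the shSetdb1 library. Whether counting used strand is not given in the sources used here, and the part of Bst1 in the Fbxl5 value was not tested.

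**Figure D2:**
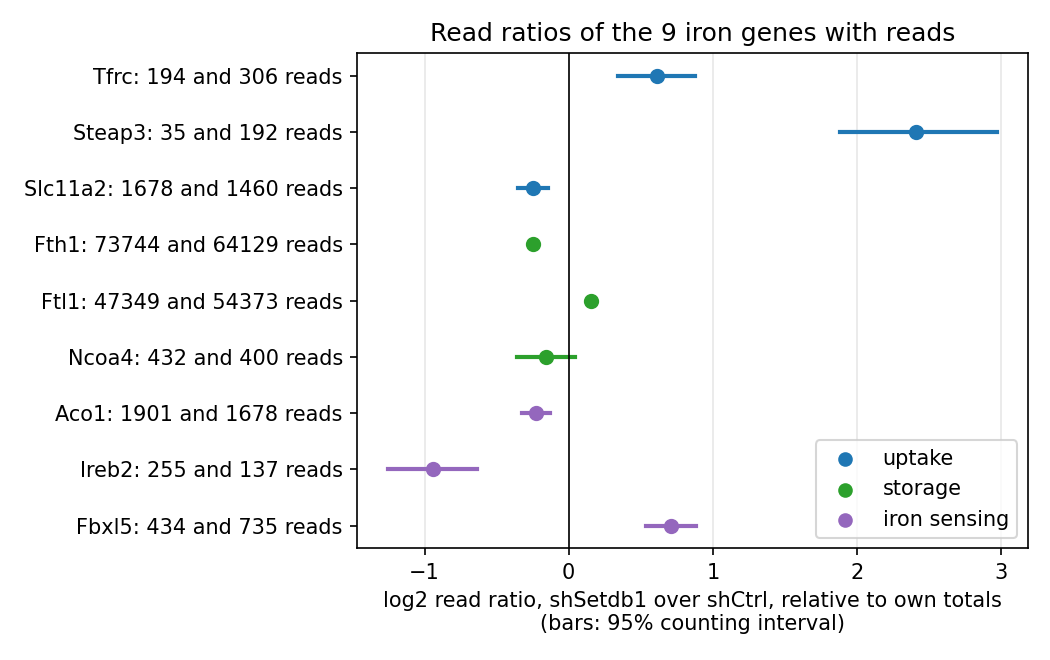
Read ratio of each iron gene with reads, knockdown over control and relative to each library's own total, as log2, with 95% counting intervals as bars and the reads of the control and knockdown library beside each name. Steap3, Fbxl5, Tfrc and Ftl1 lie above 0, and only the interval of Ncoa4 crosses 0; intervals of Fth1 and Ftl1 are hidden by their points.

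Across the 9 genes at 1 FPKM, 4 were higher and 5 lower in the shSetdb1 library, with log2 ratios from -0.46 to 1.07 and a median of -0.08. At the ends of this range, Ireb2 reached 1 FPKM in the shCtrl library alone and Steap3 in the shSetdb1 library alone. Each is thus counted through the library where it is higher. The only member left out, Slc40a1, had no reads. The median of all 10671 loci was -0.00039, and 49.6% of them were higher. The counting interval excluded 1 for 8 of the 9 genes, 4 in each direction, against 75.8% of all loci (35.2% above and 40.6% below), most of which thus passed as well at this depth. No member with reads changed its direction in the 7 alternatives run on single genes, but these are not 7 separate checks of direction. Summing loci could alter Ftl1 alone, and a change of pseudocount cannot alter any direction. CPM can only repeat the direction found with scaling by own read totals. By position of the element, Tfrc, with elements after the coding sequence, had a log2 ratio of 0.45. The genes with an element before it had -0.20 (Fth1) and 0.20 (Ftl1), or had no reads (Slc40a1).

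As a check of the labels, Setdb1 had 1340 reads (10.4 FPKM) in the shCtrl library and 317 (2.47 FPKM) in the shSetdb1 library, a read ratio of 0.229 (0.202 to 0.259). The library totals were 18421604 reads for the control and 19045830 for the knockdown, and the deposited FPKM divide both by the same depth. Some markers of other cell types differed too. Of 6 blood and macrophage markers, 3 were higher in the shSetdb1 library. Cd68 had 245 and 2360 reads and Cd14 638 and 1217, whereas Lyz2 had 23 and 21. The defining Adgre1, Ptprc and Csf1r had at most 4 reads in either library. The summed level of these 6 was 33.0 FPKM in the shCtrl library and 142 FPKM in the shSetdb1 library. Cd68 alone made up 10.4 and 100 FPKM of these sums. The part of such markers in the iron gene values was not tested. Of 6 epithelial markers, Krt18 reached 1 FPKM, with 1016 and 2423 reads, and Epcam and Cdh1 had 0 reads, although the label is colon cancer. In bulk RNA, fewer cells expressing a gene and less RNA per cell cannot be told apart.

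Another 96 genes of iron biology, in 8 lists, placed these values in their pathways. Of the 95 found, 74 reached 1 FPKM. Of these, 32 were higher, 41 lower and 1 equal in the shSetdb1 library, against 49.6% of all loci higher. At least 2-fold differences were seen in 7 (9.46%), 2 higher and 5 lower, against 11.7% of all loci. Their median log2 ratio was -0.07.

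**Figure D3:**
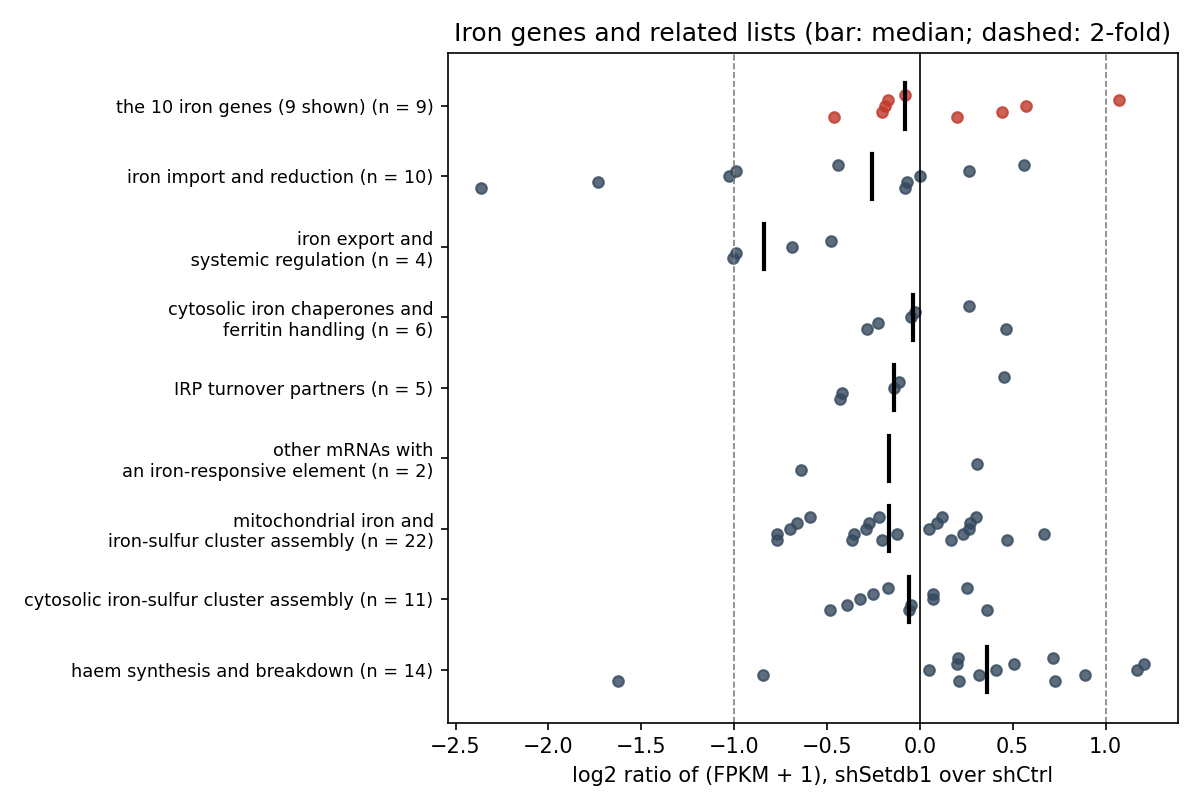
Log2 ratio of (FPKM + 1), knockdown over control, for the 9 iron genes at 1 FPKM (red) and for the genes of each of 8 further lists at that level (blue), with the median as a bar and 2-fold differences as dashed lines. Steap1 and Steap2 lie farthest to the left, and haem genes have the highest median, 0.36.

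Other genes of iron import and reduction included relatives of Steap3. Steap1, a STEAP family protein (chromosome 5, 5736317 to 5749326), had 6645 reads (258 FPKM) in the shCtrl library and 1273 reads (49.4 FPKM) in the shSetdb1 library, a log2 ratio of -2.36. Steap2, a metalloreductase at 5664829 to 5694578 on the same strand of that chromosome, had 4366 reads (19.2 FPKM) and 1154 reads (5.07 FPKM), a log2 ratio of -1.73. Steap4 had 2 reads and 0 reads. So the STEAP genes differed among themselves: Steap3 was higher after knockdown, while Steap1 and Steap2 were lower from much higher control levels. In the shSetdb1 library Steap1 and Steap2 remained above Steap3 per length. Slc39a14, a zinc transporter that also carries iron not bound to transferrin, was lower as well, from 4817 to 2266 reads (log2 ratio -1.03). Of the 10 genes of this list at 1 FPKM, 2 were higher, 7 lower and 1 equal, with a median of -0.26. The highest was Snx3, a sorting nexin that recycles the transferrin receptor, at 0.56.

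Genes of export and systemic regulation were few. The 4 at 1 FPKM were all lower, from -0.48 for Neo1, a co-receptor of the hepcidin pathway, to -1.01 for Cp, ceruloplasmin, the ferroxidase that works with ferroportin. Cp had 430 reads in the shCtrl library and 124 in the shSetdb1 library, and it overlaps Hps3, which had 171 and 58 reads. The 7 other genes found had 59 and 80 reads in all, and among them Tmprss6, a protease that lowers hepcidin, had 11 and 40 reads, a read ratio of 3.52 (1.77 to 7.60). Cp and Flvcr1, a haem exporter, passed 1 FPKM in the shCtrl library alone, so the shared direction of the 4 follows in part from the filter. Without it the median of the list was -0.03. Flvcr1 and Tmprss6 were named after their values were seen.

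Partners of the storage and sensing genes at 1 FPKM stayed within 2-fold on the log2(FPKM + 1) scale. Of 6 cytosolic iron chaperones and ferritin handling genes, 2 were higher and 4 lower, from -0.28 for Nploc4 to 0.47 for Atg9a, an autophagy membrane protein. The 5 turnover partners of the iron regulatory proteins ran from -0.43 for Rchy1, a ubiquitin ligase, to 0.45 for Rbx1, the RING subunit of cullin ligases. Among other mRNAs with an iron-responsive element, Cdc42bpa, a kinase, had 819 reads in the shCtrl library and 381 in the shSetdb1 library. Its log2 ratio of -0.64 understates the difference at this low level, since its read ratio was 0.450 (0.397 to 0.509), past 2-fold.

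Genes of iron-sulfur cluster assembly at 1 FPKM also stayed within 2-fold on that scale. In mitochondria, 10 of 22 genes were higher and 12 lower, with a median of -0.16. The highest was Isca2, a late-acting assembly factor, at 0.67. In the cytosol, 4 of 11 were higher and 7 lower, with a median of -0.06, from -0.48 for Ndor1 to 0.36 for Ciao1.

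Haem genes had the highest median of the lists, 0.36, with 12 of 14 higher and 2 lower, where 49.6% of all loci were higher. The 12 include Fech, whose counting interval included 1. Alas1, which starts haem synthesis, had 960 reads (8.30 FPKM) in the shCtrl library and 2371 reads (20.5 FPKM) in the shSetdb1 library. Its log2 ratio was 1.21 and its read ratio 2.39 (2.22 to 2.58). Blvrb, a biliverdin reductase at the end of haem breakdown, had 1443 and 3309 reads, a log2 ratio of 1.17. Cpox, coproporphyrinogen oxidase, was the lowest, with 4113 reads (33.0 FPKM) in the shCtrl library and 1247 reads (9.99 FPKM) in the shSetdb1 library. Its log2 ratio was -1.63.

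Along the synthesis pathway the direction was not uniform. Alad, Urod and Ppox were at 0.51, 0.41 and 0.73, Uros was at -0.84 and Fech, the last enzyme, which inserts the iron, at 0.05. In breakdown, Hmox1 was at 0.21, Hmox2 at 0.72 and Blvra at 0.89. These enzymes fall outside the rule for named genes and were named after their values were seen. Under upper-quartile scaling Fech was at -0.04.

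**Figure D4:**
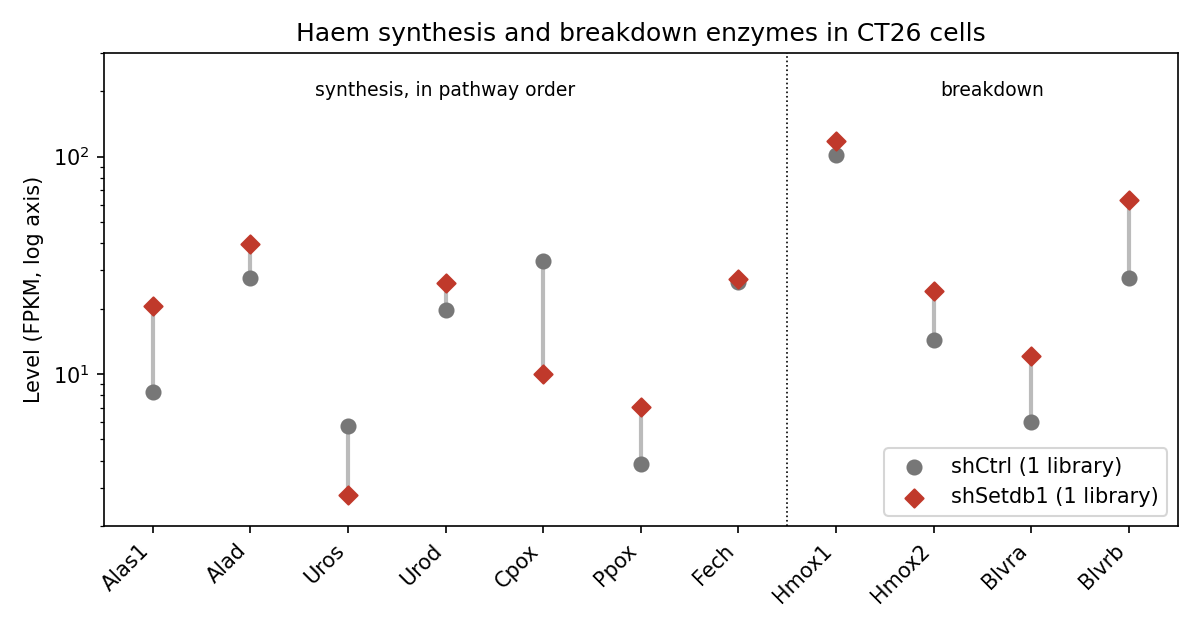
Level in FPKM (log axis) of 7 enzymes of haem synthesis in pathway order and 4 of haem breakdown, in the shCtrl library (grey circles) and the shSetdb1 library (red diamonds). Cpox and Uros are lower in the shSetdb1 library, while Alas1 and Blvrb show the widest differences upward.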

How the data were processed

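The authors deposited FPKM values for 1 control and 1 knockdown library, per the file headers. The submitters' processing notes name CASAVA, HISAT2, featureCounts 1.5.0-p3 and the GRCm38 build, without their settings. Strand use and the treatment of reads that fit several loci are not given in the sources used here. Whole reads were recovered as FPKM times gene model length over a common step (tolerance 0.01 reads), which gave 1 common depth of 18731117 reads. Log2 ratios of (FPKM + 1), knockdown over control, were computed with a filter of 1 FPKM in at least 1 library. Where several loci carried a symbol, that with most reads stands for it. Read ratios were scaled by each library's own total. No p-value was computed with 1 library per group. The genes and lists were chosen with earlier results of these data known. Named genes are Setdb1, the 10 iron genes, and of each list the genes past 2-fold and the highest and lowest, of which some are not reported here. Of the 19 list genes so named, 10 overlap another locus with reads and 2 share a Swiss-Prot match with another locus. Iron-responsive elements and shared 50-base stretches came from GENCODE M21 transcripts. Alternatives were a pseudocount of 0.1, other filters, 4 scalings, CPM, summed loci, other thresholds and protein-coding genes only. Calculations were tested on simulated data. Tools were scipy 1.17.1, numpy 2.4.6, pandas 2.3.3 and matplotlib 3.10.9 under Python 3.11.15.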

Additional observations from a re-analysis of the deposited data

How the results depend on the processing

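The median log2 ratio of the iron genes lay between -0.18 (filter at 5 FPKM) and -0.04 (no filter), and 4 members were higher under every alternative except the 5 FPKM filter, which leaves few members, 1 of them higher. Of 70 alternative values of the members, 58 stayed within counting error, 12 moved and 0 changed direction. The change of pseudocount could not alter a direction, and CPM could only repeat that of scaling by own read totals. Some of the 58 could not have moved. The 7 values of Slc40a1 are 0 because it had no reads, and summing loci could alter Ftl1 alone. Of 196 values of named list genes, 176 stayed and 20 moved. Of 72 list medians, 61 stayed and 11 moved, among them export and regulation, at -1.19 with a pseudocount of 0.1 and -0.03 without a filter. Scaled by own read totals, the summed heavy chain was at -0.25 and the summed light chain at 0.15. The Setdb1 value became -2.06 on log2(CPM + 1) and -2.04 when 0.1 was the pseudocount. Loci at least 2-fold higher and lower numbered 727 and 518, with a pseudocount of 0.1 1134 and 870, at 1.5-fold 1804 and 1523, and at 4-fold 116 and 56, as those thresholds make them. Except where a construction is named, the cause was not tested. Summing ferritin loci of any species was added after seeing the data and changed neither chain. Upper-quartile scaling moved the median of all loci most, to -0.08. No paired analysis was possible because both groups consist of 1 library, and leaving out a library was likewise not possible. Depth limits Slc40a1, with 0 reads in both libraries, and Steap3, with 35 control reads.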

Other observations

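Genes of red blood cell development, the main users of iron for haem, were near the limit of detection. Of 6 erythroid markers, 4 had more reads in the shSetdb1 library, and their summed level was 0.851 FPKM in the shCtrl library and 2.78 FPKM in the shSetdb1 library. Epor, the erythropoietin receptor, had 10 and 36 reads, and Klf1, an erythroid transcription factor, had 5 and 18. Hba-a1, an alpha globin, had 5 and 17 reads, whereas the beta globin Hbb-bs had 0 in both, as had Alas2, the erythroid form of the enzyme that starts haem synthesis. Of 3 liver markers, Apoa1 had 13 and 36 reads and Ttr 0 in both.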
